A study of Mus musculus with 4 samples.

Results

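Transcripts of 10 receptor genes of natural killer (NK) cells and myeloid cells were measured in whole uteri of pregnant mice with and without Qa-2, a class I molecule of the non-classical kind. The genes were taken from a list of receptors for MHC class I molecules and related ligands, namely Pirb, Lilrb4a, Cd160, Klrk1, Klrc1, Klrd1, Klrb1c, Klra4, Klra8 and Ncr1. All 10 were found among the 55421 genes counted in each library. The 2 WT animals were C57BL/6J mice and the 2 Qa-2- animals were B6.K1 mice (B6.Cg-H2b3/FlaCmwJ), an H2 congenic strain that arose without engineering from crosses of the B6.A-H2-T18a and B6.AK-H2k strains. All 4 animals were pregnant at E18.5 after mating within the strain, so that the fetuses carried the genotype of the dam, and each uterus gave 1 poly(A)-enriched, strand-specific library. RNA was taken from a small portion of each frozen uterus. Mice were mated when 8 to 12 weeks old. The WT and B6.K1 mice came from different suppliers, so that the control animals were not littermates.

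NK cells read class I molecules on neighbouring cells through paired sets of inhibitory and activating receptors, and they are a large leukocyte population of the early mouse decidua. In mice the classical class I molecules are read mainly by the Ly49 family (Klra genes). The class Ib molecule Qa-1, the product of H2-T23, is read by CD94 (Klrd1) in a dimer with NKG2A (Klrc1), and the stress-induced class I relatives Rae-1, H60 and MULT1 by NKG2D (Klrk1). Myeloid cells carry the immunoglobulin-like receptors PIR-B (Pirb), which binds class I molecules and also the human molecule HLA-G, and gp49B (Lilrb4a). Not every receptor of the list is known as a class I receptor: a known ligand of gp49B is an integrin, and NK1.1 (Klrb1c) and NKp46 (Ncr1) are best known as activating receptors that mark NK cells.

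None of the 10 genes lies on chromosome 17, where the H2 complex is. On GRCm38, 6 of them (Klrb1c, Klrd1, Klrk1, Klrc1, Klra4 and Klra8) lie on chromosome 6 in the NK gene complex, within a stretch of 1351414 bases from 128778485 to 130129898. Pirb (chromosome 7, 3711409 to 3720391, minus strand) and Ncr1 (chromosome 7, 4337724 to 4345164, plus strand) lie in the region of the leukocyte immunoglobulin-like receptors. Lilrb4a is on chromosome 10 (51490956 to 51496611) and Cd160 on chromosome 3 (96798763 to 96829351). All 10 are annotated as protein-coding genes.

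Upstream sequences were found in RefSeq (GRCm38.p6) for 8 of the 10 genes, the others being Lilrb4a and Klrd1. Cd160, Klra8 and Ncr1 had 2 such sequences each, for 2 starts of transcription, and the first entry is shown and counted here. The 250 bases before the start of transcription are shown for 4 genes, because Klra4, Klra8 and Ncr1 are the genes whose values did not overlap between the groups, and Pirb is the most abundant of the list. Capitals mark matches, on either strand, to GGAAGT (the core of ETS factor sites), TGTGGT (RUNX), GGTGTG (T-box) and TTCNNNGAA (STAT), 4 families with known members in NK or myeloid cells.
Klra4 (chr6:130067272-130067521, minus strand): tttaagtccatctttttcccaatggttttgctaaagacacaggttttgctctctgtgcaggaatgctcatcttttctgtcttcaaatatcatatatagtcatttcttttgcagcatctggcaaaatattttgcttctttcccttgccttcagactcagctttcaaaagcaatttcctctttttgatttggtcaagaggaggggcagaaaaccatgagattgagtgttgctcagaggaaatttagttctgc
Klra8 (chr6:130129899-130130148, minus strand): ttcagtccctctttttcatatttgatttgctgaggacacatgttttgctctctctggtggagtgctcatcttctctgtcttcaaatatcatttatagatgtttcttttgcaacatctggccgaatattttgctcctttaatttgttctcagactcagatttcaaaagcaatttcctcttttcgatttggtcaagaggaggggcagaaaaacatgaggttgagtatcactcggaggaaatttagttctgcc
Ncr1 (chr7:4337465-4337714, plus strand): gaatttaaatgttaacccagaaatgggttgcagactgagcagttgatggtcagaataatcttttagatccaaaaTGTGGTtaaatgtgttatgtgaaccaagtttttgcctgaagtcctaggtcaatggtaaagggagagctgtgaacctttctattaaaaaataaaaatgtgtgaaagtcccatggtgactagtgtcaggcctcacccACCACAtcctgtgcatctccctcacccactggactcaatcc
Pirb (chr7:3720383-3720632, minus strand): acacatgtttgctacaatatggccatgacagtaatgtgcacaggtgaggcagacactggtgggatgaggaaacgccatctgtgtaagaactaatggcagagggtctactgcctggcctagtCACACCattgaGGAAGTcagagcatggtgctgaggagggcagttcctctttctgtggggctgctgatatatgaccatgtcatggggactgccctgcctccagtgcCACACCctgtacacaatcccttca
The upstream sequences of Klra4 and Klra8 had 212 identical bases in 251 aligned columns, an identity of 84.5%, and neither held a match to any of the 4 motifs. Ncr1 held 2 matches to the RUNX motif, and Pirb held 1 match to the ETS motif and 2 to the T-box motif. In the first entries of the 8 genes, the RUNX motif stood in 5 (Cd160, Klrk1, Klrc1, Klrb1c and Ncr1), against 14.0% of 32851 upstream sequences of the same length. The ETS motif stood in 2 of these 8 sequences against 19.7% of all, the T-box motif in 2 against 16.3%, and the STAT motif in 0 against 7.02%. The second entry of Cd160 held 1 match to each of the 4 motifs, that of Ncr1 2 matches to the RUNX motif and that of Klra8 none. None of the matches shown overlaps another. A match describes these letters only and is not a binding site shown by the data.

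The total of counted read pairs was between 33286390 and 41041299 per library, and both WT libraries were the deeper ones. H2-Q6 and H2-Q7, which encode Qa-2, had between 1192 and 6318 counts in the WT libraries and between 2 and 4 in the Qa-2- libraries, so that the libraries matched their labels. Of 8 uterine genes such as Pgr, the progesterone receptor, all 8 had counts in every library. In the comparison of WT with Qa-2- uteri by edgeR's quasi-likelihood test (Benjamini-Hochberg adjustment), levels were taken as CPM, the counts scaled to a common library total, and a gene was kept where 2 or more libraries reached 1 CPM. With this filter 0 of 14492 genes (0%) had an adjusted p under 0.05. An unadjusted p under 0.05 was found for 2199 of them, 8.09% of the genes on the WT side and 7.09% on the Qa-2- side. The Wald test of DESeq2 called 404 genes on the WT side and 296 on the other. Since a value of 1 CPM stands for 33.3 to 41.0 counts, 7 of the 10 receptor genes fell below the filter. All 10 were therefore also fitted together with the 28242 genes that had a count in any library. In that fit 61 genes (0.216%) passed after adjustment, 0.166% on the WT side and 0.0496% on the Qa-2- side, and 3045 genes (10.8%) had an unadjusted p under 0.05. A total of 3 counts, the floor below which a gene was not read as detected, stood for 0.0731 to 0.0901 CPM. Intervals and floors cover counting error only. For 1 gene alone, 2 animals against 2 allow no two-sided exact permutation p below 0.33.

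None of the 10 genes was called, with the filter or without it. Of the 10, 9 had a lower fitted mean in WT than in Qa-2- uteri and 1, Pirb, a higher one, and the median log2 fold change (WT relative to Qa-2-) was -0.74, beside -0.05 for all genes of the same fit. The unadjusted p was under 0.05 for 1 gene, Klra4, by edgeR and likewise by DESeq2, on the side where 4.99% of all genes in the fit passed that limit (5.79% on the WT side). This did not hold in every fit: no gene of the list passed with the counts thinned to the smallest library, without WT replicate 1 or without Qa-2- replicate 2, Klra8 passed as well without WT replicate 2, and Pirb, on the WT side, without Qa-2- replicate 1 and with the replicate numbers crossed as a block. Both Qa-2- libraries lay above both WT libraries for 3 genes (Klra4, Klra8 and Ncr1), which is 30% of the 10, while 20.5% of all genes in that fit had this order. With library totals in place of TMM-scaled sizes, Klrk1 and Klrd1 had this order as well, against 25.4% of all genes. No gene of the list had both WT libraries above both Qa-2- libraries, an order seen for 17.8% of all genes. The 10 genes share libraries and in part cells, so they are not independent of each other. In whole tissue, fewer cells of a type and less RNA per cell cannot be told apart.

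**Figure D1:**
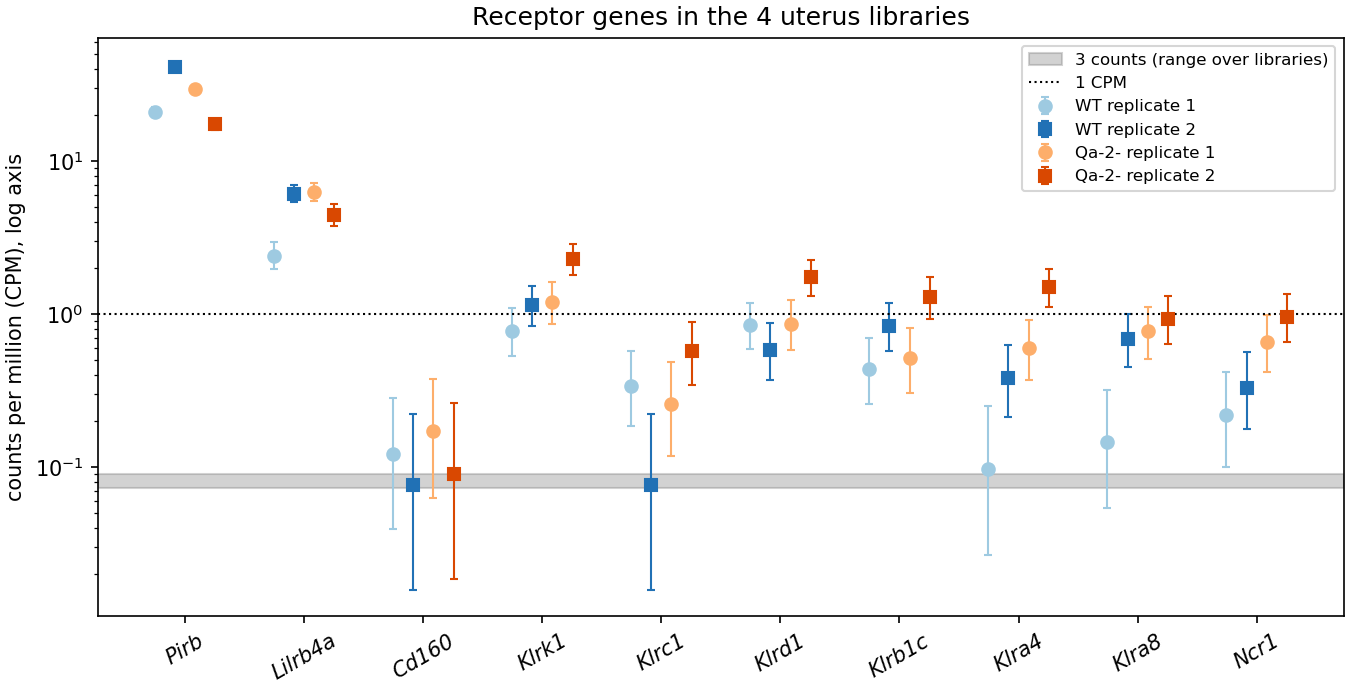
CPM (log axis) of the 10 receptor genes in each of the 4 libraries, with exact 95% Poisson intervals of the counts as bars. The grey band is the level of 3 counts and the dotted line is 1 CPM. The groups overlap for Pirb and Lilrb4a, and Klra4, Klra8 and Ncr1 have both Qa-2- libraries above both WT libraries.

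Levels between genes were compared as TPM, which corrects the counts for the summed exon length of each gene and then for the library total. Pirb had the highest level, with 13.1 and 28.2 TPM in WT and 20.7 and 11.3 TPM in Qa-2- uteri, and its lowest library was above the highest library of every other gene. Lilrb4a came next in the order of means (1.29 to 3.78 TPM over the 4 libraries), followed by Klrd1 (1.40 to 3.96), Klra8 (0.347 to 2.30), Klra4 (0.219 to 3.51) and Ncr1 (0.398 to 1.82). The lowest were Klrb1c (0.414 to 1.27 TPM), Klrk1 (0.303 to 0.925), Klrc1 (0.118 to 0.838) and Cd160 (0.0886 to 0.204). Apart from Pirb, the range of each gene overlapped that of its neighbour in this order. Klrd1 was above its dimer partner Klrc1 in all 4 libraries, by a ratio of TPM between 3.87 and 11.9.

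Pirb, an inhibitory receptor of macrophages, neutrophils and B cells, had 863 and 1617 counts in WT and 1032 and 580 counts in Qa-2- uteri, or 21.03 and 41.0 CPM against 29.6 and 17.4 CPM. The groups overlapped: WT replicate 2 was the highest library and Qa-2- replicate 2 the lowest, and each group spread by more than the counting error. The TMM-scaled mean was 32.3 ± 14.9 CPM (SD, n = 2) for WT and 22.7 ± 8.67 CPM (SD, n = 2) for Qa-2-. With the filter the log2 fold change was 0.50 ± 0.42 (standard error), with no call (adjusted p = 0.604, quasi-likelihood test of edgeR), and without WT replicate 2 it was -0.09. The macrophage receptor genes Csf1r and Mrc1 had the same order of libraries as Pirb. So had the smooth muscle gene Myh11, at 3184 and 6607 CPM in WT and 4649 and 2425 CPM in Qa-2- uteri. The summed level of the 8 uterine genes came mainly from Myh11, Des and Acta2. It was highest in WT replicate 2 (23280 CPM) and lowest in Qa-2- replicate 2 (8172 CPM), with 14140 and 14020 CPM in the others. Of the 8 genes, 5 were highest in WT replicate 2, 2 in WT replicate 1 and 1, Esr1, in Qa-2- replicate 2. Esr1 had 219.5 and 261 CPM in WT and 355 and 423.3 CPM in Qa-2- uteri. The part of tissue composition in the values of Pirb was not tested. Csf1r had 130.5 and 208.0 CPM in WT and 194.8 and 119.8 CPM in Qa-2- uteri. Per 1000 counts of Mrc1 there were 200 and 198 counts of Pirb in WT and 169 and 195 in Qa-2- uteri, and per 1000 counts of Csf1r there were 161 and 197 against 152 and 145. Per 1000 counts of Lyz2, another macrophage gene, there were 40.3 and 72.1 counts of Pirb in WT and 99.2 and 56.8 in Qa-2- uteri. The ratio of Pirb thus spanned a smaller range than its CPM with Csf1r and Mrc1 and not with Lyz2, of which Mrc1 and Lyz2 were picked after their values were seen.

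Lilrb4a, the inhibitory gp49B of myeloid and mast cells, had 99 and 241 counts in WT and 220 and 148 counts in Qa-2- uteri, or 2.41 and 6.12 CPM against 6.30 and 4.45 CPM. WT replicate 1 was the lowest library and the other WT library was close to Qa-2- replicate 1, so that the groups overlapped. The log2 fold change was -0.24 ± 0.52 (standard error), with no call (adjusted p = 0.852, quasi-likelihood test of edgeR). Its sign rested on single libraries, being 0.27 without WT replicate 1 and 0.06 without Qa-2- replicate 1. Per 1000 counts of Mrc1, Lilrb4a had 22.9 and 29.6 counts in WT and 36.0 and 49.8 in Qa-2- uteri. Both Qa-2- libraries were the higher ones on this ratio, and also relative to Csf1r, Lyz2, Tyrobp and Lilr4b. Per 1000 counts of Ptprc, the gene of CD45 on all leukocytes, the groups overlapped, with 73.7 and 165 counts in WT and 139.2 and 92.1 in Qa-2- uteri. The neighbouring paralog Lilr4b, which encodes gp49A, had 213 and 414 counts in WT and 275 and 198 in Qa-2- uteri, again with overlapping groups.

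**Figure D2:**
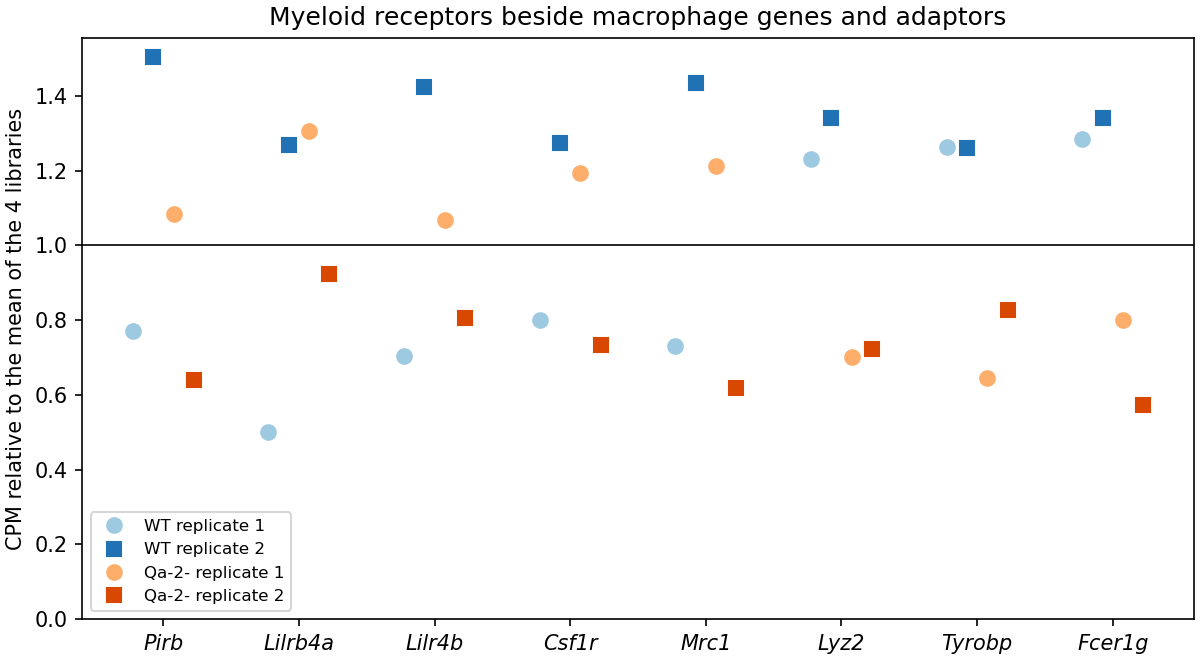
CPM of Pirb, Lilrb4a and Lilr4b, of the macrophage genes Csf1r, Mrc1 and Lyz2, and of the adaptor genes Tyrobp and Fcer1g, each divided by its mean over the 4 libraries. WT replicate 2 and Qa-2- replicate 1 are the higher libraries for Pirb, Lilrb4a, Lilr4b, Csf1r and Mrc1, whereas both WT libraries are above both Qa-2- libraries for Lyz2, Tyrobp and Fcer1g.

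The macrophage markers as a list had another order of libraries than the 2 myeloid receptors. Of 12 monocyte and macrophage markers, 7 had both WT libraries above both Qa-2- libraries, against 25.4% of all genes kept, and their summed level was 1436 and 1904 CPM in WT and 1162 and 959.1 CPM in Qa-2- uteri. None of the 12 was called and the median log2 fold change was 0.71. Of 8 neutrophil markers, whose sum was 9.01 to 9.62 CPM in WT and 5.73 to 7.03 CPM in Qa-2- uteri, Ly6g was at 0 counts in 3 libraries and Camp in 3. The summed level of 7 B cell and plasma cell markers was 226.1 and 255.7 CPM in WT and 205.4 and 265.6 CPM in Qa-2- uteri, and that of 7 dendritic cell markers lay between 17.1 and 21.3 CPM. The part of these cell types in the values of Pirb and Lilrb4a was not tested.

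Klrk1, the activating receptor NKG2D of NK cells and some T cells, had 32 and 45 counts in WT and 42 and 76 counts in Qa-2- uteri (0.780 and 1.14 CPM against 1.20 and 2.28 CPM). Qa-2- replicate 2 stood above the others and the remaining 3 libraries were close together. On TMM-scaled library sizes the groups overlapped, and the log2 fold change was -0.75 ± 0.49 (standard error), with no call (adjusted p = 0.498, quasi-likelihood test of edgeR). When Qa-2- replicate 2 was left out, it came to -0.25. Klrk1 was the only gene of the list besides Pirb and Lilrb4a that passed the filter, and it did so with 1 WT library and both Qa-2- libraries at or above 1 CPM.

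Klrd1 (CD94) had 35 and 23 counts in WT and 30 and 58 counts in Qa-2- uteri, and Klrc1, which encodes the inhibitory NKG2A, had 14 and 3 counts against 9 and 19. Qa-2- replicate 2 was the highest library for both genes and WT replicate 2, at the floor for Klrc1, the lowest. The fit without the filter gave log2 fold changes of -0.74 (standard error 0.58) for Klrd1 and -0.86 (standard error 0.97) for Klrc1. Both rested on single libraries: leaving out each in turn gave -1.15 (without Qa-2- replicate 1) to -0.17 (without Qa-2- replicate 2) for Klrd1, and -2.30 (without WT replicate 1) to -0.17 (without WT replicate 2) for Klrc1, with -0.21 without Qa-2- replicate 2. With 3 counts in WT replicate 2, the exact 95% Poisson interval of Klrc1 there ran from 0.0157 to 0.223 CPM, below the 0.344 to 0.891 CPM of Qa-2- replicate 2. Klrb1c, which encodes NK1.1 of C57BL/6 mice, had 18 and 33 counts in WT and 18 and 43 counts in Qa-2- uteri, giving a log2 fold change of -0.38 ± 0.67 (standard error). The first replicate of each group was the lower one for Klrb1c, and without Qa-2- replicate 2 its log2 fold change was 0.40.

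The 3 genes without overlap were the Ly49 genes Klra4 and Klra8 and Ncr1. Klra4, which encodes the activating receptor Ly49D, had 4 and 15 counts in WT and 21 and 50 counts in Qa-2- uteri, or 0.0975 and 0.381 CPM against 0.601 and 1.502 CPM. The libraries of the groups did not overlap, but WT replicate 2 and Qa-2- replicate 1 were close, with 95% Poisson intervals of 0.213 to 0.628 CPM and 0.372 to 0.919 CPM. The TMM-scaled mean was 0.249 ± 0.209 CPM (SD, n = 2) for WT and 1.01 ± 0.595 CPM (SD, n = 2) for Qa-2-. The log2 fold change was -2.01 (standard error 0.81, unadjusted p = 0.033, adjusted p = 0.386 in the quasi-likelihood test of edgeR across 28242 genes). It was -1.37 without WT replicate 1, -3.28 without WT replicate 2, -2.51 without Qa-2- replicate 1 and -1.23 without Qa-2- replicate 2.

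Klra8 encodes Ly49H, the activating receptor of C57BL/6 mice for a protein of murine cytomegalovirus. It had 6 and 27 counts in WT and 27 and 31 counts in Qa-2- uteri, or 0.146 and 0.685 CPM against 0.773 and 0.931 CPM. WT replicate 1 alone stood apart, and the other 3 libraries differed by less than their counting intervals. The log2 fold change was -0.92 ± 0.77 (standard error), with no call (adjusted p = 0.765, quasi-likelihood test of edgeR), and it was -0.23 without WT replicate 1, -2.41 without WT replicate 2 and -0.51 with the counts thinned to the smallest library.

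Ncr1, which encodes NKp46, had 9 and 13 counts in WT and 23 and 32 counts in Qa-2- uteri, or 0.219 and 0.3299 CPM against 0.659 and 0.961 CPM. Of the 3 genes without overlap it had the smallest spread within the groups relative to the difference, with 0.285 ± 0.0826 CPM (SD, n = 2) for WT and 0.778 ± 0.192 CPM (SD, n = 2) for Qa-2-. The log2 fold change was -1.44 (standard error 0.69), the unadjusted p was 0.0643 and after adjustment it was 0.511 (quasi-likelihood test of edgeR, adjusted p). Leaving out each library in turn moved it between -1.76 and -1.16.

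Cd160, a receptor of NK, NK-like innate and CD8 T cells that binds class I molecules and HVEM (Tnfrsf14), had 5 and 3 counts in WT and 6 and 3 counts in Qa-2- uteri. These values lie at or just above the floor in both groups, and no difference was detectable at this depth.

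**Figure D3:**
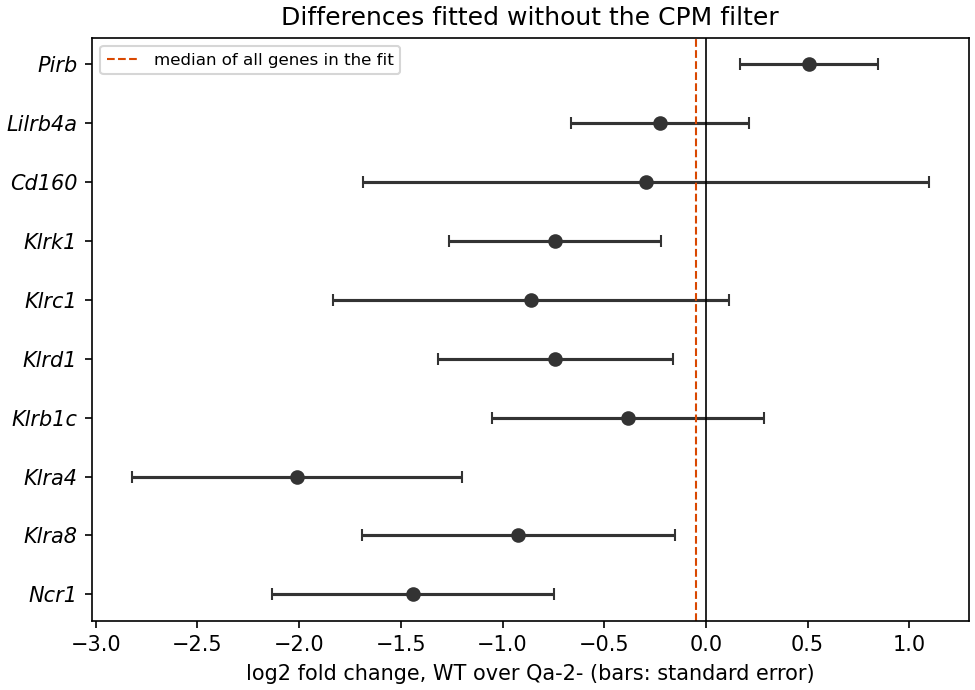
Log2 fold change (WT relative to Qa-2-) for the 10 receptor genes, from the fit without the CPM filter, with standard errors as bars. The dashed line is the median of all 28242 genes (-0.05). Pirb is on the WT side and the other 9 genes on the Qa-2- side, with the standard errors of Lilrb4a, Cd160, Klrc1 and Klrb1c crossing 0.

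The 8 genes other than Pirb and Lilrb4a had 123 and 162 counts together in WT and 176 and 312 counts in Qa-2- uteri, which is 2.997 and 4.11 CPM against 5.04 and 9.37 CPM. The step between WT replicate 2 and Qa-2- replicate 1 was smaller than that between the 2 Qa-2- libraries. Relative to Ptprc, the gene of the leukocyte antigen CD45, there were 91.5 and 110.9 counts per 1000 Ptprc counts in WT and 111.3 and 194.2 in Qa-2- uteri, so that WT replicate 2 and Qa-2- replicate 1 were alike on this ratio. Ptprc itself had 32.8 and 37.1 CPM in WT and 45.3 and 48.3 CPM in Qa-2- uteri. Its higher values were thus in Qa-2- uteri, unlike the other pan-leukocyte genes, of which 6 of 6 (Laptm5, Coro1a, Cd53, Itgb2, Cd52 and Arhgdib) had both WT libraries above both Qa-2- libraries on TMM-scaled sizes, against the 25.4% of all genes kept. On library totals the groups overlapped for Laptm5 (61.1 CPM in WT replicate 1, 61.4 CPM in Qa-2- replicate 1). They also did for Cd52 (10.8 CPM in WT replicate 2, 11.1 CPM in Qa-2- replicate 2). None of these 7 genes was called.

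Among 13 NK cell markers, all of them with counts in every library, 0 had groups that did not overlap. Of the 10 that passed the filter, 0 were called by edgeR and 0 had an unadjusted p under 0.05. Without the filter 0 of the 13 were called and 2, Prf1 and Gzmb, had an unadjusted p under 0.05 (0.00839 and 0.0375 in the fit of edgeR), both on the WT side, where 5.79% of all genes passed that limit. Their summed level was 172.5 and 33.4 CPM in WT and 31.9 and 76.5 CPM in Qa-2- uteri. On TMM-scaled sizes WT replicate 1 held the highest value of 7 of the 13 markers and Qa-2- replicate 2 that of the other 6, with Il2rb and Fasl changing sides on library totals. In WT replicate 1 the sum came mainly from the genes of cytotoxic granules Prf1, at 76.5 CPM against 2.28 CPM in WT replicate 2, and Gzmb, at 26.4 against 1.70 CPM. That library had the lowest values of Klra4, Klra8 and Ncr1. Nkg7, another gene of cytotoxic lymphocytes, had 1.80 and 1.95 CPM in WT and 0.859 and 2.22 CPM in Qa-2- uteri, and Il2rb had 12.1 and 3.10 CPM against 4.38 and 12.2 CPM. Gzma, also a gene of cytotoxic granules, had 0.950 and 1.015 CPM against 0.344 and 1.68 CPM, with its highest value in Qa-2- replicate 2. Prf1 and Gzmb thus ordered the libraries differently from Klra4, Klra8 and Ncr1, and the granule genes differed among themselves. The 10 T cell markers summed to 7.61 to 8.11 CPM in WT and 7.59 to 9.40 CPM in Qa-2- uteri, with Cd3e at 15 to 20 counts. Both WT libraries were above both Qa-2- libraries for 3 of the 10 (Cd8b1, Trac and Icos), against 17.8% of all genes without the filter. The reverse held for 1, Cd4, against 20.5%, with 0.950 and 2.77 CPM in WT and 3.32 and 3.06 CPM in Qa-2- uteri. The part of NK or T cell numbers in the receptor values was not tested.

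**Figure D4:**
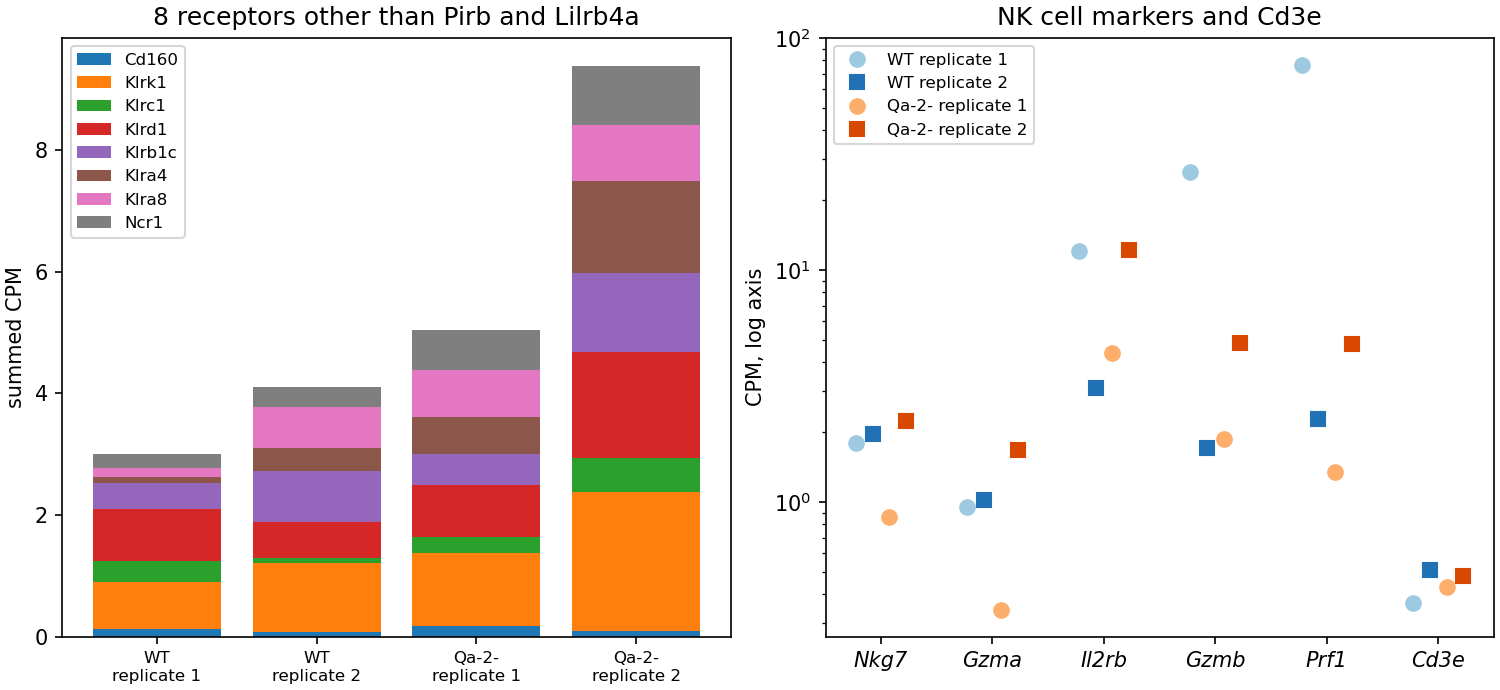
Left, summed CPM of the 8 receptor genes other than Pirb and Lilrb4a in each library, with 1 colour per gene. Right, CPM (log axis) of 5 NK cell markers and of the T cell gene Cd3e in the same libraries. The receptor sum goes from 2.997 CPM in WT replicate 1 to 9.37 CPM in Qa-2- replicate 2, while Prf1 and Gzmb are highest in WT replicate 1.

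Related receptors gave further counts. Of 19 other NK receptor genes of the same families, 18 had a count in any library, Klrc3 had 0 in all of them, and 2 passed the filter. Both Qa-2- libraries were above both WT libraries for 5 of the 18 (Klra1, Klra3, Klra9, Klri1 and Klri2), near the 20.5% of all genes, all 5 with at most 23 counts in any library, and the reverse held for Klrb1f. Klra3 (Ly49C), an inhibitory receptor for classical class I, had 4 and 15 counts in WT and 19 and 23 counts in Qa-2- uteri, so that WT replicate 1 was low as for Klra4 and Klra8. Klra7 (Ly49G), in contrast, had 36 and 3 counts against 18 and 25, and there the lowest library was WT replicate 2. Klrb1f, with the larger difference of the 2 that passed the filter, had 1.90 and 1.55 CPM in WT and 0.430 and 0.661 CPM in Qa-2- uteri. Its difference on the log2 scale was 1.75 (unadjusted p = 0.0095, adjusted p = 0.256, quasi-likelihood test of edgeR). Of 4 relatives of Pirb and Lilrb4a, Lilra5 had the largest difference, with 1.29 and 2.31 CPM in WT against 0.544 and 0.721 CPM and a log2 fold change of 1.61 (adjusted p = 0.281, quasi-likelihood test of edgeR). No gene of either list was called.

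Among 15 ligand genes, 12 passed the filter and 0 were called with it, 4 having an unadjusted p under 0.05 on the WT side and 1 on the Qa-2- side, against 8.09% and 7.09% of all genes kept. Of the 4, 2 were H2-Q6 and H2-Q7. Their median log2 fold change was 0.82, and 12 of the 15 were highest in WT replicate 1. H2-Q6 and H2-Q7, which the Qa-2- strain lacks, were the 2 ligand genes called without the filter. H2-T23, whose product Qa-1 is the ligand of the dimer of Klrd1 and Klrc1, had 175.7 and 89.8 CPM in WT and 44.0 and 72.2 CPM in Qa-2- uteri, giving a difference on the log2 scale of 1.29 (unadjusted p = 0.0205, adjusted p = 0.281, quasi-likelihood test of edgeR). Its groups did not overlap, whereas those of Klrd1 and Klrc1 did. H2-K1 and H2-D1, the classical class I genes, had overlapping groups, with WT replicate 1 at 1655 and 2541 CPM and the other 3 libraries between 545.8 and 1168 CPM. Of the ligands of NKG2D, H60c had 5.09 and 6.27 CPM in WT and 8.71 and 10.6 CPM in Qa-2- uteri, with a log2 fold change of -0.67 (adjusted p = 0.321, quasi-likelihood test of edgeR). Ulbp1, which encodes MULT1, had 26.5 and 16.8 CPM against 19.6 and 12.9 CPM, with overlapping groups. Tnfrsf14, a ligand of Cd160, had 3.39 and 4.90 CPM in WT and 5.93 and 5.11 CPM in Qa-2- uteri. Its groups overlapped on TMM-scaled sizes but not on library totals.

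The adaptors through which the activating receptors signal were compared as well. Of 18 signalling partners, 16 passed the filter and 0 were called, and the median log2 fold change was 0.29. Tyrobp (DAP12), the adaptor of Ly49D and Ly49H and of many myeloid receptors, had 33.3 and 33.2 CPM in WT and 17.01 and 21.8 CPM in Qa-2- uteri (log2 fold change 0.87, unadjusted p = 0.00407, adjusted p = 0.246, quasi-likelihood test of edgeR). Fcer1g, the adaptor of NKp46 and of myeloid Fc receptors, had 36.5 and 38.1 CPM against 22.7 and 16.2 CPM. Both adaptor genes had their higher values in WT, the opposite side from Klra4, Klra8 and Ncr1. Hcst (DAP10), the adaptor of NKG2D, had 45 and 30 counts in WT and 28 counts in each Qa-2- library, with overlapping values on the CPM scale. Ptpn6 (SHP-1), the phosphatase recruited by inhibitory receptors such as PIR-B, had 22.2 and 26.0 CPM in WT and 21.1 and 25.9 CPM in Qa-2- uteri. Plcg2 had the lowest log2 fold change of the list, -0.68, with 21.5 and 21.7 CPM in WT against 34.3 and 39.5 CPM.

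The receptor genes belong to families of close copies, and pairs that fitted several places or several genes had not been counted. Of all stretches of 100 bases, the read length, in the annotated transcripts of each gene, the share that also stood in a transcript of another gene was 0 for Cd160, Klrk1, Klrd1, Klra4 and Ncr1. It was 20.7% for Pirb, where the most were shared with Gm14548 and Pira2 of the same cluster, and 14.6% for Klrc1, shared with Klrc2. For Klra8 it was 14.4%, mostly shared with the pseudogene Klra14-ps, while Klra4 shared none. For Lilrb4a it was 34.7%, of which the larger part (31.0% of its stretches) came from Gm49339, an annotated gene that spans Lilr4b and Lilrb4a on the same strand (chromosome 10, 51480612 to 51496613). Pairs in the exons that Gm49339 holds in common with Lilrb4a belong to 2 genes and were not counted, and Gm49339 itself had between 0 and 2 counts. For Klrb1c, 10.5% of the stretches stood in Gm44511, which overlaps it on the same strand and had 0 counts in all 4 libraries. The levels of Pirb, Lilrb4a, Klrc1, Klrb1c and Klra8 are therefore uncertain, and Klrc2 itself had 0 and 11 counts in WT and 10 and 21 in Qa-2- uteri. Only exact matches of single stretches were searched, and the mate of a read can still place a pair.

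**Figure D5:**
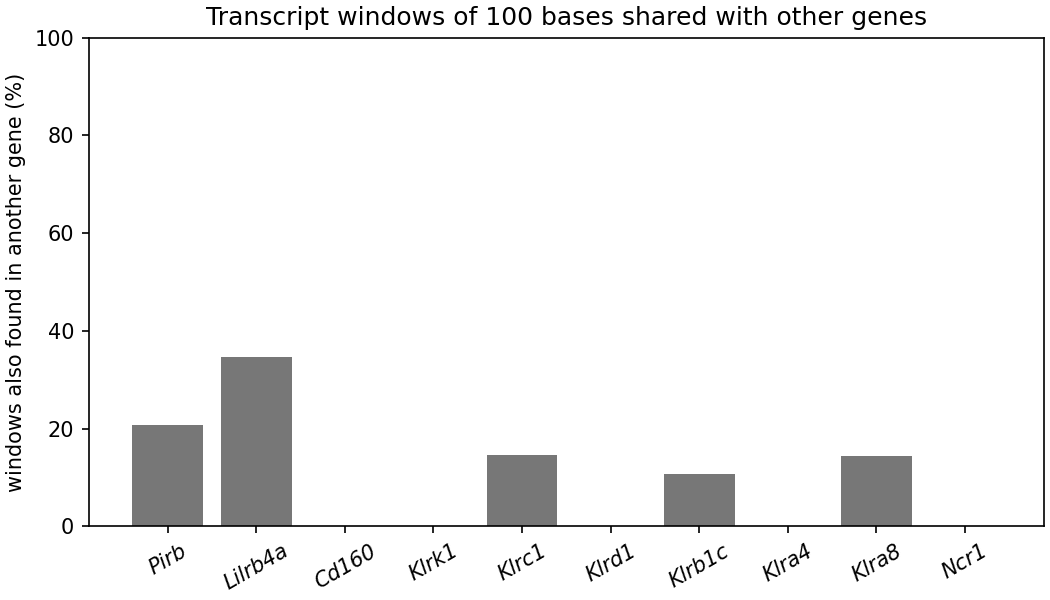
Percentage of the 100-base stretches in the annotated transcripts of each receptor gene that also stand, letter for letter, in a transcript of another gene. Lilrb4a (34.7%) and Pirb (20.7%) have the largest shares, and Cd160, Klrk1, Klrd1, Klra4 and Ncr1 have none.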

How the data were processed

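Whole uteri of 2 WT and 2 Qa-2- mice were sequenced in pairs of 100-base reads. The authors deposited raw, unscaled gene counts. Per the file headers, featureCounts 2.0.0 assigned reverse-strand pairs to exons of a GRCm38 annotation, requiring both mates to be aligned (minimum mapping quality 3). STAR 2.7.3a is named in the submitters' processing notes. Of 55421 identifiers, 55154 had a symbol in a table of gene IDs and 54899 had the same start and end in GENCODE M21, which gave gene types and transcripts, and 9 of 147 listed symbols were without a match and are not analysed here.

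WT and Qa-2- counts were compared by the quasi-likelihood test of edgeR 4.0.16 (TMM scaling, Benjamini-Hochberg adjustment, R 4.3.3), with at least 1 CPM in at least 2 libraries, and again without this filter. The filter follows the wording of the study's transcriptome methods, which name no test for these data, but the number of genes it left here (14492) is not that given by the study. CPM and TPM of single libraries use library totals, while means with an SD use TMM-scaled sizes. The standard error is the log2 fold change divided by the square root of F. Groups overlap or not on TMM-scaled CPM. DESeq2 1.42.0 was the other tool. Depth was 33286390 to 41041299 counts per library. Motifs were chosen after the values were known. The 10 genes and all lists were chosen with earlier results of these data known. Named from each list are genes by role and those with the largest or smallest log2 fold changes, while Klra1, Klra3, Klra7, Klra9, Klrg1, Klri1, Klri2, Il2rb, Cd244a, the pan-leukocyte genes, Mrc1, Lyz2, Myh11, Fasl, Ly6g, Camp and the genes that share stretches were chosen after their values were seen. Itga2, Cd8b1, Trac and Icos were likewise chosen after their values were seen. Replicate numbers pair no animals. The 2 libraries of each group varied beyond counting error (mean chi-square of a gene 140.9 between the WT and 84.6 between the Qa-2- libraries). Nothing states separate cohorts, so p-values measure the spread between these animals. Each animal gave a single library from a portion of its uterus, so spread between animals and between portions cannot be told apart. Protein sequences were not used here.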

Additional observations from a re-analysis of the deposited data

How the results depend on the processing

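Without the filter, none of the 10 receptor genes was called by DESeq2, with library totals alone, upper-quartile normalization, a replicate block, thinning to the smallest library and leaving out each library in turn, in which case the lone library of a group is assumed to vary like the others. DESeq2 gave no adjusted p for Cd160 and Klrc1, which it therefore could not call. With at least 10 counts in every library 0 genes at all were called, the receptors below that count (Cd160, Klrc1, Klra4, Klra8 and Ncr1) not being compared. With the replicate block 2 genes were called on the WT side and 0 on the Qa-2- side, and none of them was a receptor of the list. Same-numbered samples deviated in opposite directions (correlation -0.37), and crossing the pairs, an alternative chosen after seeing the data, called 0 genes. For the changes that follow, the cause was not tested. Over all genes, DESeq2 called 404 on the WT side and 296 on the Qa-2- side, and edgeR without a filter called 47 and 14. Leaving out each library in turn gave 0 to 88 and 0 to 5 genes, the most without WT replicate 2, and 4 genes higher in WT without WT replicate 1.

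Of the 10 genes, 3 had both Qa-2- libraries above both WT libraries, and with library totals alone 5 did. With each library left out in turn these were 4 to 7, and 0 to 2 genes had the WT side higher, but with 1 library against 2 a gene is more easily without overlap: over all genes the shares were then 30.7% to 36.7% and 26.6% to 33.1%. The median log2 fold change over the 3 genes kept was -0.24, between -1.08 and 0.27 with each library left out, and over all 10 genes -0.74, between -1.08 and -0.35. The sign of the median over the 3 genes kept thus rested on single libraries. The median over all 10 genes stayed negative but varied in size. The log2 fold change turned for Pirb without WT replicate 2 (range over the libraries left out -0.090 to 0.96 with the filter and -0.061 to 0.96 without it). It turned for Lilrb4a without WT replicate 1 (0.27 and 0.27) and without Qa-2- replicate 1 (0.06 and 0.07), with ranges of -1.08 to 0.27 and -1.05 to 0.27. Without the filter it also turned for Cd160 without Qa-2- replicate 1 (-0.69 to 0.25) and for Klrb1c without Qa-2- replicate 2 (-0.93 to 0.40). As counts per 1000 Ptprc counts, the median log2 ratio of WT to Qa-2- over the 10 genes was -0.42, and with the sum of 7 pan-leukocyte genes in place of Ptprc it was -1.15. Counts of at most 76 per library limit the precision for the 8 genes other than Pirb and Lilrb4a.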

Other observations

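Klrg1, an inhibitory receptor of mature NK and effector T cells, was chosen after its values were seen, as was Cd244a. It had 157 counts in WT replicate 1, against 2 counts in WT replicate 2 and 8 and 10 counts in the Qa-2- libraries. Cd244a, an NK receptor gene of the marker list, had 5.75 CPM in WT replicate 1 and 0.965, 0.916 and 2.52 CPM in the other libraries.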
